A study of Mus musculus with 20 samples.

Results

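The genes described here encode the proteasome. They are the protein-coding mouse genes whose symbols begin with Psma, Psmb, Psmc, Psmd, Psme, Psmf or Psmg followed by a number, together with Pomp. Psmb8, Psmb9 and Psmb10, which encode the inducible immunoproteasome subunits, were left out of the set. The rule uses only the names of the genes, and the set was proposed with earlier results of these data known. It found 48 genes of the 55335 in the count table, and 46 of them passed the filter on low counts that left 14878 genes for testing. By known role they were 16 core genes, 17 cap genes, 8 assembly factors, 6 other activators or inhibitors, and Psmc3ip, whose letters match although its product is known from meiotic recombination.

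The proteasome is the barrel-shaped protease that degrades ubiquitin-tagged proteins. Stacked alpha and beta rings form the 20S core, whose beta subunits hold the active sites, and the 19S cap recognises, unfolds and feeds the substrates. Other activators can dock on the core in place of the cap, and dedicated chaperones build both particles without being part of the finished enzyme. In heart muscle the system turns over sarcomeric and damaged proteins, and transcription factors such as Nfe2l1 can raise many of its genes together.

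Hearts came from C57BL/6N mice of 3 to 5 months, either wild type (WT) or lacking Ogfod1 (OGFOD1-KO, here KO), a prolyl hydroxylase of a ribosomal protein. Osmotic minipumps had delivered vehicle (PBS with sodium ascorbate) or isoproterenol, a beta-adrenergic agonist used to induce cardiac hypertrophy, in the same vehicle, for 2 weeks. All mice ate the NIH-31 diet, and the labels do not say in which cells the gene was removed or how. RNA from powdered whole hearts was sequenced as 20 libraries, 5 in each of WT vehicle, WT isoproterenol, KO vehicle and KO isoproterenol. The title of the study names translation and susceptibility to hypertrophy as its subject, and the comparisons below ask how proteasome genes stood in each arm. The labels do not state that each library came from its own mouse, so p-values measure the spread between these libraries.

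Libraries held 14609808 to 43671055 counts, of which 0.276% to 0.315% of those outside the mitochondrial genes fell on the proteasome genes, or 17321 to 53294 counts a library. Values are CPM, counts divided by the size of the library, after TMM scaling, which leaves out genes with extreme ratios when library sizes are set. Ogfod1 was lower in KO than in WT hearts by a log2 fold change of -2.58 under vehicle (SE 0.113, edgeR quasi-likelihood test, adjusted p 5.24e-16) and of -2.64 under isoproterenol. The 8 cardiomyocyte markers summed to 21431 to 35310 CPM over the libraries, and none of the markers of the other cell types in heart was at 0 in every library. Lymphocyte markers summed to no more than 2.66 CPM. WT vehicle replicate 2 was the lowest or highest of its group in 53.1% of all genes tested, and KO isoproterenol replicate 5 in 54.0%. They took those places in 27 and 23 of the 46 tested proteasome genes, and calls and medians that changed without them are given with and without. WT vehicle replicate 5 took them in 28 proteasome genes and WT isoproterenol replicate 1 in 25, against 36.8% and 47.7% of all genes tested.

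The promoters of 7 members are shown first, because they belong to the 5 genes that fell with isoproterenol and to 2 catalytic subunits, Psmb5 and Psmb6, that did not pass. Each line holds the 250 bases before the RefSeq transcription start (GRCm38.p6), 5′ to 3′ on the strand of the gene. Capitals mark TGACNNNGC, the antioxidant-type element of Nfe2l1 and its relatives, CCAAT, the element of NF-Y, and CCGGAAG, the core bound by ETS-family factors, each on either strand.
Pomp: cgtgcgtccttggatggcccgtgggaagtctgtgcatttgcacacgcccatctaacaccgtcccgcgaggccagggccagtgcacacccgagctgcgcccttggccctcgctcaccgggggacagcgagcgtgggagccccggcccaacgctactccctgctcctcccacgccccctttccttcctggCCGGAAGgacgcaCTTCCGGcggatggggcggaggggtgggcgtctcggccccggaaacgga
Psme3: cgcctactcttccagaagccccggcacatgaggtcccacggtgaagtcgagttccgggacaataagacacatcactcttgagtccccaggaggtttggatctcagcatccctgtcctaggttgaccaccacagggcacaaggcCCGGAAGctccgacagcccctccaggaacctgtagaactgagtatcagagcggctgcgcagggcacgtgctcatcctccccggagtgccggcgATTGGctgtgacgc
Psme4: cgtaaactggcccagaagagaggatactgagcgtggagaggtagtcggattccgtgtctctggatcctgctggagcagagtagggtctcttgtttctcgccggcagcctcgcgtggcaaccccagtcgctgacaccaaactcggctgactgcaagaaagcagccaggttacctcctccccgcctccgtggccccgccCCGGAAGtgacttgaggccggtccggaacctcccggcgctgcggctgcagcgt
Psmd12: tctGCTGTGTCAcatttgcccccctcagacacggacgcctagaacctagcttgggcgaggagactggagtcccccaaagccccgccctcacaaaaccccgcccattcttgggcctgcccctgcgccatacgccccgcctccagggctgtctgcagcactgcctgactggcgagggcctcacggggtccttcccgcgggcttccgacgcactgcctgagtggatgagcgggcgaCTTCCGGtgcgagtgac
Psme1: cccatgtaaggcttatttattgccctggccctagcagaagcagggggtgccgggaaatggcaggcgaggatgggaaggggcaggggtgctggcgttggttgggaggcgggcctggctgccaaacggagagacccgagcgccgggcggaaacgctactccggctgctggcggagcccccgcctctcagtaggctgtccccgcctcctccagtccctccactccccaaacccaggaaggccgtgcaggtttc
Psmb5: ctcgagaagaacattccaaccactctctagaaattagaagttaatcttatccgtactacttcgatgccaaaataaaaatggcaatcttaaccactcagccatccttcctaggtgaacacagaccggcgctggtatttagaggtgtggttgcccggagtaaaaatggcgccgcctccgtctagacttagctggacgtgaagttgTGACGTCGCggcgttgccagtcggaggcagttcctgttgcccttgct
Psmb6: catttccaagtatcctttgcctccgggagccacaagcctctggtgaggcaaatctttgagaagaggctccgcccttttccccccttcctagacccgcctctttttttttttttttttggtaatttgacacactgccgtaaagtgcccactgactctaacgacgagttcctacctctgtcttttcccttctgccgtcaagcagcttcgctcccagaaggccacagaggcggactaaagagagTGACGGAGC

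The Pomp window lies at chr5:147860378-147860627 on the plus strand, and the Psme3 window at chr11:101315963-101316212 on the plus strand. The windows of Psme4 (chr11:30771525-30771774), Psmd12 (chr11:107479278-107479527), Psme1 (chr14:55578244-55578493) and Psmb6 (chr11:70525107-70525356) are on the plus strand too, and that of Psmb5 (chr14:54617996-54618245) is on the minus strand. CCGGAAG began 62 and 49 bases before the start of Pomp, 107 before Psme3, 53 before Psme4 and 17 before Psmd12. It was not in the windows of Psme1, Psmb5 and Psmb6. TGACNNNGC began 47 bases before Psmb5, 9 before Psmb6 and 247 before Psmd12. All these distances are to the RefSeq start. GENCODE vM21 places the gene start further upstream for Pomp (147860461), Psmd12 (107479484), Psme4 (30771726), Psme1 (55578123) and Psmb5 (54618022). By that annotation the CCGGAAG matches of Pomp and Psmd12 lie inside the gene, and that of Psme4 spans its start. The whole Psme1 window lies inside the gene, so it may not hold the promoter.

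Of the 46 tested members, 39 had an entry in the promoter table. CCGGAAG was in 14 of these 39 windows (35.9%), against 7.83% of all 27025 promoters of that length and 15.0% of those of the genes tested. Within the proteasome genes it was in 8 of 14 cap promoters, among them Psmc1, Psmc6, Psmd2 and Psmd11, and in 1 of 11 core promoters, that of Psma6. The 14 include Pomp, Psme3, Psme4 and Psmd12. The other 10 belong to genes that did not pass in any comparison with all 20 libraries, although Psmc1 and Psmc2 passed with 1 library left out. TGACNNNGC was in 5 windows (12.8%), those of Psmb5, Psmb6, Psmc6, Psmd9 and Psmd12, against 11.5% of all promoters and 13.9% of those tested. CCAAT was in 13 windows (33.3%), 6 of them of core genes, against 37.5% of all promoters and 40.1% of those tested. Of the other motifs searched on both strands, the element of the factor NRF1 was in 15.4% of the members, against 5.64% of all promoters and 11.6% of those of the genes tested. GGGCGG, the GC box, was in 56.4%, against 35.4% of all and 62.9% of those tested, so that its order depends on the background. TATAAA, the TATA box, was in 7.69%, against 14.3% of all and 8.26% of those tested. TGACGTCA, the cyclic AMP response element, was in 0 of the 39 windows, against 1.77% of all and 2.92% of those tested. These are matches of letters, and binding was not measured. GC content differs between these sets, with medians of 57.8% in the members, 52.4% in all promoters and 59.6% in those of the genes tested.

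All 7 standard alpha subunits and all 7 standard beta subunits were expressed in every group. To compare genes, levels were divided by the length of the merged exons and are given as CPM per kilobase (kb), as means over the 20 libraries. In the beta ring Psmb6, the caspase-like active site, was highest at 25.7 CPM per kb (20.9 to 28.5 over the libraries). Psmb7, the trypsin-like site, had 11.8 (9.98 to 13.4), and Psmb5, the chymotrypsin-like site, had 7.03 (4.88 to 9.33). The ranges of these 3 genes did not overlap. In the alpha ring, which gates the entry to the core, Psma6 stood at 20.3 CPM per kb and Psma3, the lowest core subunit, at 5.48. From the highest to the lowest core gene the span was 4.69-fold, although their products are present in equal numbers in the finished core. In that order, 11 of the 13 pairs of neighbours had overlapping library ranges. With the longest transcript as the length, the span was 7.08-fold and Psmb5 was the lowest at 7.03 CPM per kb. For Psmb5, 57.1% of the 50-base windows of its transcript also occur in other annotated transcripts, pseudogenes included, and for Psma5 54.5%. Smaller shares were found for other members, among them Psmd2 (26.1%), Psma4 (25.6%), Psma3 (22.0%) and Psmc1 (17.6%). How such reads were counted is not given in the sources used here. The levels of Psmb5 and Psma5 are therefore uncertain, and to a lesser degree those of the other genes named. The part of this in their level was not tested.

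The 2 core members that did not pass the low-count filter are tissue-restricted forms. Psma8, the testis alpha subunit, had 0.0635 to 0.629 CPM in the 20 libraries. Psmb11, the thymus beta subunit, had 0 counts in 18 libraries and 1 count in each of the other two.

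The cap genes spanned a range of 6.50-fold on the scale of CPM per kb. Among the ATPases of the cap base, which unfold the substrate, Psmc3 had 25.5 CPM per kb, Psmc1 21.1 and Psmc5 17.0, while Psmc2 had 4.82. Of the large scaffold subunits, Psmd2 stood at 16.5 and Psmd1 at 4.92, with library ranges that did not overlap. In the lid, Psmd8 was highest at 12.9 and Psmd11 lowest at 3.93, and Psmd14, the deubiquitinase that removes ubiquitin before degradation, had 4.96. The median cap gene had 8.87 CPM per kb and the median core gene 8.33. That order turned with the longest transcript as the length, to 12.7 for the cap and 14.1 for the core. With that length Psmd13 was the lowest lid gene at 7.42, below Psmd11 at 8.43. Psmd2 and Psmd1 then stood closer together, at 22.2 and 11.5.

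Among the alternative activators, Psme4, the large single-chain activator, stood at 23.8 CPM per kb, with library values of 19.6 to 28.7. Psme1 and Psme2 encode subunits of 1 ring-shaped activator, yet Psme1 had 23.0 CPM per kb (18.9 to 26.8) and Psme2 4.47 (3.56 to 5.40). Of the Psme2 transcript, 59.3% of 50-base windows also occur elsewhere, chiefly in its intronless copy Psme2b, whose transcript was 96.2% identical to it over the aligned bases, so reads of the pair may have been split or dropped. The nuclear activator Psme3 had 12.8 CPM per kb, and Psmf1, an inhibitor of the core in vitro, had 1.25.

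The assembly factors were lower than most of the subunits they assemble. Psmg1, a chaperone of the alpha ring, had 5.01 CPM per kb, and Pomp, which joins the beta subunits and is degraded as the first substrate of the new core, had 4.63. Psmg2, the partner of Psmg1, had 2.82, Psmd10 1.76 and Psmg4 1.64. Psmd5 and Psmd9, chaperones of the cap base, had 0.847 and 0.747, and Psmg3 had 0.226. Psmg1 and Pomp overlapped the lowest core genes in their library ranges, and the highest library of the other 6 assembly factors, 3.28 CPM per kb, lay below the lowest library of any tested core gene, 4.55.

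**Figure D1:**
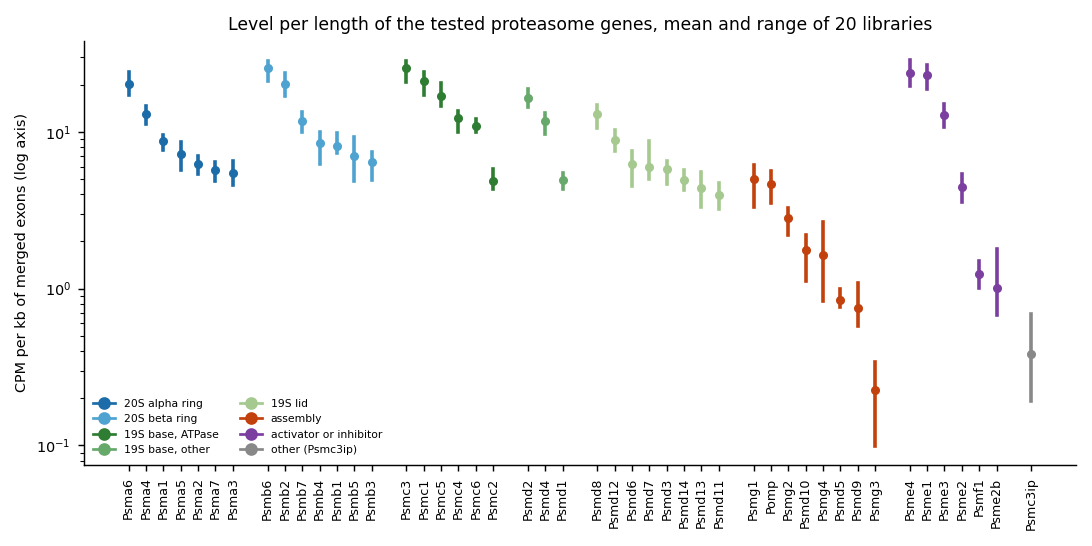
Level per length of the 46 tested proteasome genes, grouped by role on the horizontal axis, as CPM per kb of merged exons on a log axis. Points are means and bars the range of 20 libraries; core and cap genes mostly lie between 4 and 26, and 6 of the 8 assembly factors lie below 3.

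Isoproterenol was compared with vehicle in each genotype and as the average of both genotypes. Core subunits did not pass the test in any of these comparisons, in either direction, and neither did the ATPases of the cap. Leaving out 1 library gave a call to some of them: Psmb7 in KO without KO isoproterenol replicate 1 (edgeR adjusted p 0.0496), and in the average Psmc1 (0.0197) and Psmc2 (0.0498) without KO isoproterenol replicate 3, Psmc1 (0.0309) without WT isoproterenol replicate 4, and Psmc5 (0.0455) without WT vehicle replicate 4. In WT hearts, Pomp and Psme3 fell and the weakly expressed copy Psme2b rose. In KO hearts, Pomp, Psmd12 and Psme4 fell. In the average over both genotypes, 5 genes fell, namely Pomp, Psme3, Psme1, Psmd12 and Psme4, and none rose.

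Shares of all genes tested are set beside these counts. In WT, 3 of 46 members passed, where 8.76% of all genes tested did so. The 1 higher member stood against a background of 4.64% and the 2 lower ones against 4.12%. In KO, 3 of 46 passed against a background of 9.03%, all 3 lower, where 4.29% of all genes were lower and 4.75% higher. In the average, 5 of 46 were lower, a share of 10.9% against a background of 9.07% lower, and 0 of 46 were higher, where 9.76% of all genes were. At an unadjusted p under 0.05, 7, 10 and 11 of 46 members passed in WT, KO and the average. These were smaller shares than the 23%, 23.1% and 31.7% of all genes tested. The median size of the change, whatever its sign, was 0.063 on the log2 scale over the members in WT and 0.148 over all genes tested. In KO it was 0.103 over the members and 0.145 over all genes.

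Pomp, the maturation factor of the core, showed the lowest adjusted p of the set in KO and in the average, and it was the only member that fell in both genotypes. In WT hearts it stood at 27.9, 29.1, 25.3, 26.1 and 27.7 CPM with vehicle and at 20.9, 20.4, 23.1, 23.5 and 23.1 CPM with isoproterenol. Every treated WT library was below every vehicle library. In KO hearts it stood at 24.3, 27.4, 28.7, 22.6 and 26.4 CPM with vehicle and at 22.8, 20.8, 23.0, 21.9 and 18.2 CPM with isoproterenol. These ranges met, since the lowest vehicle library, replicate 4, lay below the highest 2 treated ones. The log2 fold change was -0.29 in WT (SE 0.0738, edgeR adjusted p 0.0113) and -0.28 in KO (SE 0.0740, edgeR adjusted p 0.0149). The average was -0.29 (SE 0.0522, edgeR adjusted p 2.18e-04), a change of -18.0% with a 95% interval from -23.8% to -11.7%. The difference between the genotypes in this response was 0.01 (edgeR adjusted p 0.989), with an interval from -13.0% to 17.0%. The call in KO was lost without KO isoproterenol replicate 5 (edgeR adjusted p 0.0564) and without KO vehicle replicate 3 (0.0520).

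Pomp was also set against the core subunits whose assembly it serves. The log2 CPM of Pomp minus the mean log2 CPM of the 14 core genes was 0.35 ± 0.15 (SD, n = 5) in WT vehicle and 0.05 ± 0.05 in WT isoproterenol. The WT vehicle libraries lay between 0.21 and 0.60 and the treated ones between 0.00 and 0.12. In KO it was 0.22 ± 0.16 with vehicle and 0.03 ± 0.14 with isoproterenol, and those ranges overlapped (-0.05 to 0.35 and -0.18 to 0.17).

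The other 7 assembly factors did not pass in any comparison. Psmg1 came nearest, in KO hearts, at 6.96, 8.14, 7.99, 7.88 and 7.23 CPM with vehicle and 6.78, 4.44, 6.22, 6.65 and 6.19 CPM with isoproterenol. The 2 groups did not overlap, and the log2 fold change was -0.33 (SE 0.122, edgeR adjusted p 0.0926). Ranges of vehicle and isoproterenol libraries were apart for 2 of 46 members in KO, Psmg1 and Psmd12, and for 3 in WT, where 8.06% and 8.05% of all genes tested were apart. In WT the Psmg1 value was 0.00 on the log2 scale, and the difference of the responses had an edgeR adjusted p of 0.670. The remaining chaperones had wide intervals: over the 8 assembly factors the 95% intervals of the average response ran from -30.9% to 58.9%.

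Of the 6 alternative activators and inhibitors, 3 fell in the average over genotypes, where 9.07% of all genes tested did. Psme3, a nuclear activator known for degradation that does not need ubiquitin, stood at 42.9, 44.6, 41.0, 38.2 and 39.2 CPM in WT vehicle and at 35.6, 37.2, 34.5, 31.7 and 33.5 CPM in WT isoproterenol. No treated WT library reached the lowest vehicle library. In KO it stood at 36.6, 41.8, 39.7, 38.6 and 42.1 CPM with vehicle and at 36.1, 35.5, 33.1, 38.2 and 34.5 CPM with isoproterenol, where the ranges overlapped. Its log2 fold change was -0.26 in WT (SE 0.0625, edgeR adjusted p 0.00899). In KO it was -0.17 (edgeR adjusted p 0.0947), and in the average -0.21 (SE 0.0442, edgeR adjusted p 9.62e-04). The difference between the genotypes was 0.09 (edgeR adjusted p 0.822, interval -6.16% to 20.6%).

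Psme4 encodes an activator linked to the degradation of acetylated histones. It stood at 220, 207, 241, 199 and 209 CPM in KO vehicle and at 188, 181, 200, 185 and 165 CPM in KO isoproterenol. Only treated replicate 3 reached the vehicle range. In WT it stood at 229, 207, 191, 184 and 209 CPM with vehicle and at 186, 179, 209, 193 and 204 CPM with isoproterenol, with wide overlap. Its log2 fold change was -0.23 in KO (SE 0.0676, edgeR adjusted p 0.0318) and -0.07 in WT (edgeR adjusted p 0.562). The difference itself did not pass, at -0.15 (edgeR adjusted p 0.71, interval -21.5% to 3.01%), so the genotypes were not shown to differ. The average was -0.15 (SE 0.0478, edgeR adjusted p 0.0267). The KO call was lost without KO isoproterenol replicate 5 (edgeR adjusted p 0.0831), without that library and WT vehicle replicate 2 together (0.0736), and without 4 other KO libraries taken out singly.

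Psme1, a subunit of the interferon-inducible ring activator, stood at 54.6, 54.0, 54.9, 51.9 and 59.3 CPM in WT vehicle and 47.8, 50.001, 48.4, 48.4 and 53.2 CPM in WT isoproterenol. In KO it stood at 48.1, 54.4, 52.6, 55.7 and 47.9 CPM with vehicle and 50.8, 46.6, 50.7, 44.4 and 41.7 CPM with isoproterenol. The ranges overlapped in both genotypes, in WT only through treated replicate 5. The average log2 fold change was -0.15 (SE 0.0451, edgeR adjusted p 0.0216), and the values within WT and KO, -0.15 and -0.14, did not pass (edgeR adjusted p 0.149 and 0.168). Its partner Psme2 did not pass, and neither did Psmf1. Psme2b, the intronless copy, had 0.580 to 0.772 CPM in WT vehicle and 0.978 to 1.502 CPM in WT isoproterenol, ranges that were apart. Its log2 fold change in WT was 0.75 (SE 0.245, edgeR adjusted p 0.0488), and that call was lost in 21 of 31 alternative settings. As 69.3% of its 50-base windows also occur in Psme2 or another copy, its counts are uncertain.

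**Figure D2:**
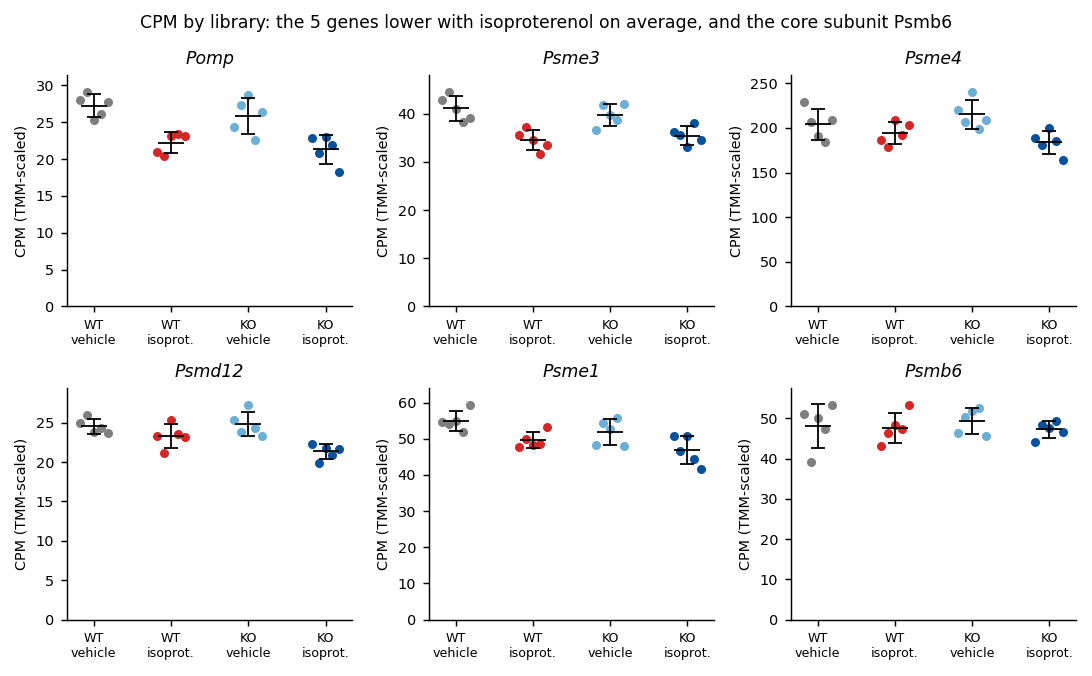
CPM after TMM scaling in each of the 20 libraries (points) for the 5 genes that were lower with isoproterenol on average and for the core subunit Psmb6, with group means and SD (bars, n = 5) and axes from 0. Pomp and Psme3 separate vehicle from isoproterenol in WT, Psmd12 does so in KO, and the groups of Psmb6 overlap.

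Cap genes gave 1 call. Psmd12, a structural subunit of the lid, stood at 25.4, 23.8, 27.2, 24.3 and 23.3 CPM in KO vehicle and at 22.3, 19.9, 21.8, 21.0 and 21.7 CPM in KO isoproterenol. The ranges were apart in KO. In WT it stood at 25.0, 25.9, 23.8, 24.3 and 23.7 CPM with vehicle and at 23.3, 21.1, 25.4, 23.6 and 23.2 CPM with isoproterenol, and these overlapped. The log2 fold change was -0.21 in KO (SE 0.0624, edgeR adjusted p 0.0284) and -0.07 in WT (edgeR adjusted p 0.526), and the difference was -0.14 (edgeR adjusted p 0.716). The average was -0.14 (SE 0.0441, edgeR adjusted p 0.0222). The KO call was lost without any 1 of KO vehicle replicates 1 and 3 and KO isoproterenol replicates 2 and 4, at edgeR adjusted p values of 0.0575 to 0.0869.

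The highest positive value in the cap was that of the lid subunit Psmd13, at 14.4, 11.8, 14.9, 11.2 and 15.8 CPM in WT vehicle and 14.3, 15.6, 15.1, 17.3 and 18.6 CPM in WT isoproterenol. The ranges overlapped, and the log2 fold change of 0.24 did not pass (SE 0.0956, edgeR adjusted p 0.117). Exons of Sirt3 on the opposite strand cover 10.1% of the exons of Psmd13, and the strand setting of the counts is not given in the sources used here. Over the 17 cap genes, the 95% intervals of the average response ran from -15.5% to 23.6%.

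For the 14 core subunits the log2 fold changes with isoproterenol ran from -0.07 to 0.06 in WT and from -0.19 to 0.16 in KO. In WT 7 lay below 0 and 7 above, and in KO 12 below and 2 above. Of all 46 members, 20 lay below 0 in WT and 36 in KO, where 49.2% and 47.5% of all genes tested did. The member medians were 0.01 in WT and -0.08 in KO, and -0.02 and -0.07 without both libraries that stand apart. Core genes varied together between libraries, so these are not separate observations. Psmb6, taken as an example of an active site, stood at 51.1, 39.2, 50.1, 47.4 and 53.3 CPM in WT vehicle and at 43.1, 46.2, 48.4, 47.4 and 53.3 CPM in WT isoproterenol. In KO it stood at 46.3, 50.4, 51.9, 52.5 and 45.6 CPM with vehicle and at 44.05, 48.4, 47.6, 49.4 and 46.7 CPM with isoproterenol, so that all 4 groups overlapped. Its average log2 fold change was -0.04, with an interval from -9.51% to 4.47%. Over the 14 core genes the 95% intervals of the average response lay between -13.8% and 15.2%, so changes within those bounds are not excluded by these data. The lowest adjusted p of a core gene was that of Psmb7 in KO (log2 fold change -0.19, SE 0.0686, edgeR adjusted p 0.0735). Exons of Nek6 on the opposite strand cover 11.8% of those of Psmb7.

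**Figure D3:**
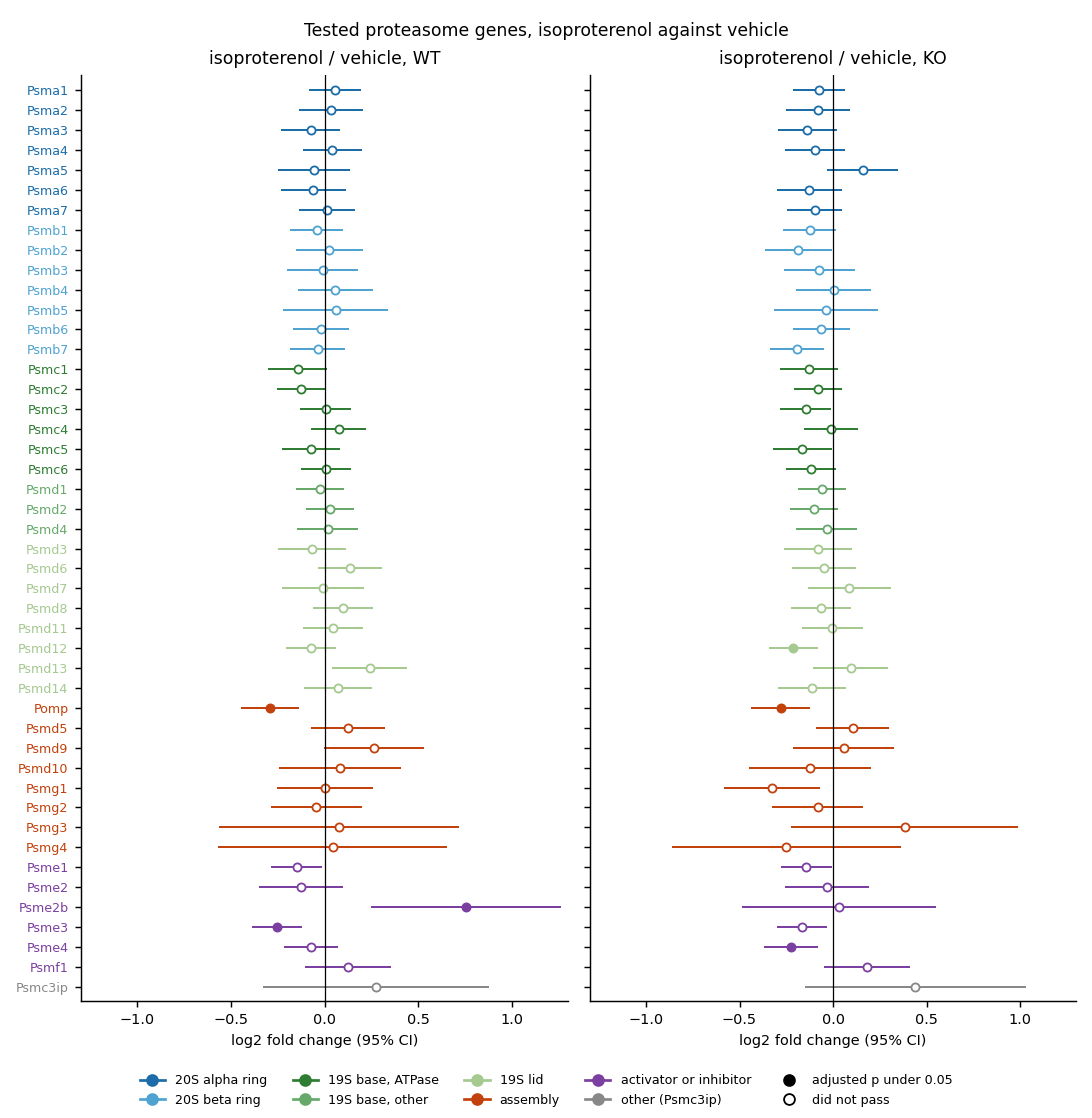
Log2 fold change of isoproterenol against vehicle in WT (left) and KO (right) for the 46 tested proteasome genes, with 95% intervals, coloured by role; filled points had an edgeR adjusted p under 0.05. Core genes lie between -0.19 and 0.16 with open points, and the filled points are Pomp, Psme3 and Psme2b in WT and Pomp, Psmd12 and Psme4 in KO.

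Mean levels of core and cap genes overlapped between the 4 groups. The mean log2 CPM of the 14 core genes was 4.42 ± 0.11 (SD, n = 5) in WT vehicle, 4.42 ± 0.09 in WT isoproterenol, 4.47 ± 0.09 in KO vehicle and 4.39 ± 0.03 in KO isoproterenol. For the 17 cap genes it was 4.82 ± 0.05, 4.83 ± 0.06, 4.83 ± 0.06 and 4.76 ± 0.06 in the same order. The cap minus core difference was 0.40 ± 0.08 and 0.41 ± 0.05 in WT and 0.36 ± 0.03 and 0.37 ± 0.04 in KO, for vehicle and isoproterenol. These differences are on the scale of log2 CPM, and they compare groups, not the amounts of the particles.

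**Figure D4:**
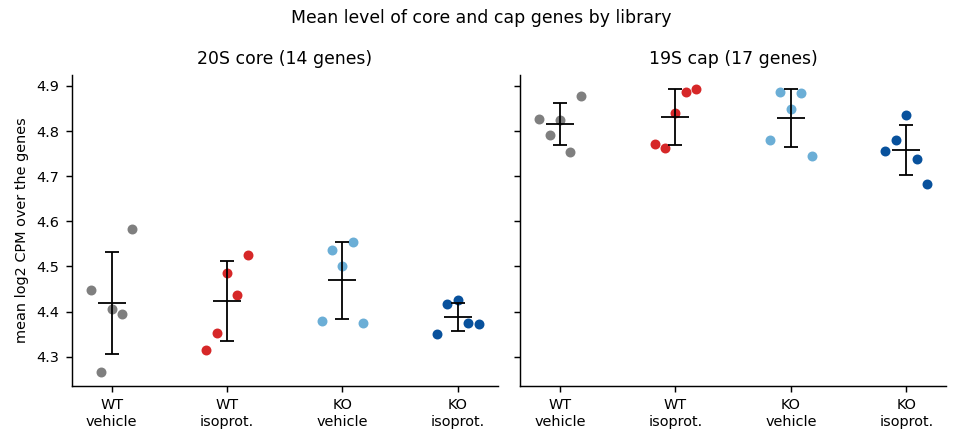
Mean log2 CPM of the 14 core genes (left) and the 17 cap genes (right) in each library (points), with group means and SD (bars, n = 5); the vertical axis does not start at 0. The groups overlap in both panels, with core means between 4.39 and 4.47 and cap means between 4.76 and 4.83.

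Cell type markers moved with isoproterenol as well. The 8 cardiomyocyte markers summed to 30323 to 35310 CPM in WT vehicle and 26197 to 28581 CPM in WT isoproterenol, and to 28600 to 30896 and 21431 to 28224 CPM in KO vehicle and isoproterenol. The 8 fibroblast markers summed to 974.5 to 1112 and 1180 to 1304 CPM in WT, and to 1094 to 1276 and 1308 to 1928 CPM in KO. The 6 macrophage markers summed to 83.6 to 98.05 and 95.8 to 143 CPM in WT, and to 97.3 to 105 and 114 to 132 CPM in KO. Of the cardiomyocyte markers 2 of 8 fell in each genotype, of the fibroblast markers 4 and 3 of 8 rose in WT and KO, and of the macrophage markers 3 of 6 rose in each. Of the 6 endothelial markers 3 rose in WT and 1 fell in KO, and of the 6 smooth muscle and pericyte markers 1 rose in WT. Of all genes tested, 4.64% rose and 4.12% fell in WT, and 4.75% rose and 4.29% fell in KO. In the average over both genotypes, 4 of 8 cardiomyocyte markers fell and 1 rose. There 6 of 8 fibroblast and 5 of 6 macrophage markers rose, 3 of 6 endothelial markers rose and 1 fell, and 1 of 6 smooth muscle and pericyte markers rose. Of all genes tested, 9.76% rose and 9.07% fell in that average. The smooth muscle and pericyte markers summed to 516 to 615 and 633 to 726 CPM in WT, and to 568 to 667 and 630 to 1581 CPM in KO. Their medians in KO were 603 CPM with vehicle and 670 CPM with isoproterenol. For the fibroblast markers the KO medians were 1202 and 1400 CPM, and for the cardiomyocyte markers 28897 and 27153 CPM. The 5 erythroid markers, of which 0 passed (edgeR), summed to 287 to 462 and 222 to 343 CPM in WT, and to 249 to 369 and 308 to 642 CPM in KO. The part of these shifts in the lower values of Pomp, Psme1, Psme3, Psme4 and Psmd12 was not tested. In RNA of whole hearts, fewer cells of a type and less RNA per cell cannot be told apart.

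Loss of Ogfod1 was compared with WT under each treatment. Under vehicle, 0 of 46 proteasome genes passed (edgeR), where 0.128% of all genes tested did. Under isoproterenol 0 passed against a background of 0.181%, and in the average of both treatments 0 passed against 0.847%. At an unadjusted p under 0.05 there were 1, 3 and 2 members, against backgrounds of 8.31%, 13% and 12.8%. DESeq2 and limma-voom also gave 0 calls in these 3 comparisons. Among the cell type markers, 2 of 8 fibroblast markers were higher in KO (edgeR) in the average of both treatments, where 0.847% of all genes passed. The median log2 fold change over the 8 was 0.17. No other cell type marker passed in a comparison of KO with WT. The part of this shift in the values of the proteasome genes was not tested.

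Under vehicle, the KO values were slightly above WT for all 14 core genes, with log2 fold changes of 0.00 to 0.11 and a median of 0.03. Under isoproterenol they were below WT for 13 of the 14, with a median of -0.04. Over all 46 members the medians were 0.03 and -0.06, with 32 above 0 under vehicle and 40 below 0 under isoproterenol, while the medians of all genes tested were 0.00 in both. The median under vehicle depended on single libraries: it was 0.01 without WT vehicle replicate 2, 0.00 without KO vehicle replicate 4, 0.04 without KO vehicle replicate 1 or WT vehicle replicate 1, 0.06 without KO vehicle replicate 5 and 0.07 without WT vehicle replicate 5. It was 0.00 with both libraries that stand apart left out, where the median under isoproterenol was -0.05. These signs do not count as 46 separate observations, because the members partly varied together from library to library, with a mean pairwise r of 0.17. That held for core (0.38) and cap genes (0.21) more than for assembly factors (0.03) and activators and inhibitor (-0.03). The exception in the core was Psma5, at 8.84, 8.01, 9.36, 9.51 and 8.52 CPM in WT isoproterenol and 9.73, 11.4, 10.8, 10.6 and 9.98 CPM in KO isoproterenol. Its 2 groups did not overlap, which held for 1 of 46 members and for 2.14% of all genes tested. The log2 fold change was 0.24 (SE 0.0907, edgeR adjusted p 0.261). As given above, much of the Psma5 transcript recurs in pseudogenes.

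The largest difference between KO and WT was that of Psme2b under isoproterenol, with 0.978 to 1.502 CPM in WT and 0.568 to 1.09 CPM in KO. The ranges overlapped, and the log2 fold change was -0.57 (SE 0.242, edgeR adjusted p 0.312). In the cap, Psmd2, a scaffold of the base, stood at 66.6, 64.2, 76.1, 69.3 and 70.6 CPM in WT isoproterenol and 58.1, 64.3, 68.1, 61.2 and 60.2 CPM in KO isoproterenol. The ranges overlapped, with a log2 fold change of -0.15 (edgeR adjusted p 0.282). Psmd7, the lid partner of the deubiquitinase Psmd14, had a log2 fold change of -0.17 in the average of both treatments (edgeR adjusted p 0.331). Its highest library was WT vehicle replicate 2, at 19.8 CPM, where the other WT vehicle libraries had 12.1 to 14.3 CPM. Over the core genes the 95% intervals of the average KO effect ran from -15.4% to 20.0%, and over the cap genes from -19.9% to 15.2%.

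**Figure D5:**
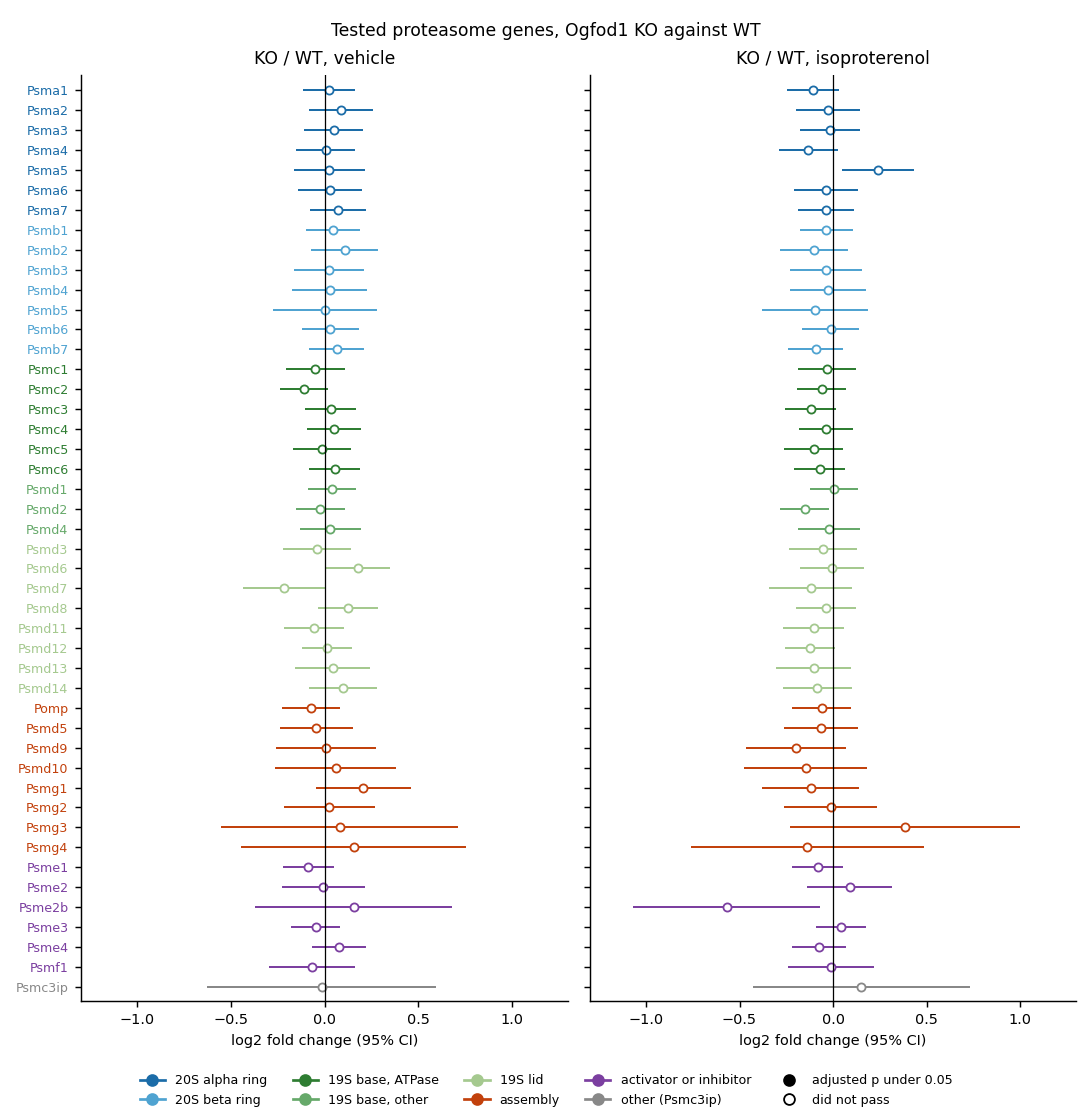
Log2 fold change of KO against WT under vehicle (left) and under isoproterenol (right) for the 46 tested proteasome genes, with 95% intervals, coloured by role. All points are open, since none had an edgeR adjusted p under 0.05, and 40 of 46 lie below 0 under isoproterenol.

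The response to isoproterenol was compared between genotypes by the difference of the 2 responses. In this test 0 of 46 members passed (edgeR), and 0% of all genes tested did. One member, Psme2b, had an unadjusted p under 0.05, where 7.68% of all genes did. The median difference, KO minus WT, was -0.08 on the log2 scale over the members, with 35 of 46 below 0. It was -0.07 with both libraries that stand apart left out. Over all genes tested it was 0.00. For core genes the differences ran from -0.21 for Psmb2 to 0.22 for Psma5, and the 95% intervals from -28.6% to 39.2%.

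Core genes, and less so cap genes, varied together between libraries of the same group. After removal of group means, the mean Pearson r over all pairs of the 14 core genes was 0.38 in the 20 libraries, while the mean over pairs of all genes tested was 0.00. For the 17 cap genes it was 0.21, for the assembly factors 0.03 and for the activators and inhibitor -0.03. With the 2 libraries that stand apart left out, the values were 0.36, 0.29, 0.05 and 0.00. These are descriptions of libraries that share a scaling, and genes are not independent replicates.

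Single genes differed in how closely they followed the mean of the core. Psmb6 had the highest r with it, 0.87, where the mean used for a core gene left that gene out. Outside the core, the cap genes Psmc4 (0.83), Psmd2 (0.80), Psmd8 (0.75) and Psmd13 (0.75) followed it most closely in the 20 libraries. The order changed without the 2 libraries named above, where Psmc3 had 0.85, Psmc4 0.78 and Psmd2 0.75. The lid genes Psmd7 (-0.20), Psmd3 (-0.12), Psmd11 (-0.05) and Psmd12 (-0.02) and the ATPase gene Psmc2 (-0.02) did not follow it in the 20 libraries. Without the same 2 libraries Psmd7 had 0.30, Psmd11 0.38, Psmd12 0.15 and Psmc2 0.44. Among the genes that fell with isoproterenol, Psme1 had an r of 0.59, Psme4 0.27, Pomp 0.15 and Psme3 -0.39.

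Other genes of the pathway were followed as lists. The immunoproteasome subunits Psmb8, Psmb9 and Psmb10, which replace the 3 active sites under interferon, gave 0 calls in all 7 comparisons. Psmb8 averaged 3.67 ± 0.62 CPM (SD, n = 5) in WT vehicle and 4.38 ± 1.12 CPM in WT isoproterenol, and Psmb10 10.7 ± 0.79 and 9.90 ± 1.4 CPM. The 12 tested genes of other proteasome-bound subunits, deubiquitinases and cofactors gave 0 calls, as did the 5 tested genes of ubiquitin and its activating enzymes. Of 12 genes of substrate shuttles and the p97 segregase, which extracts tagged proteins from complexes, 1 rose and 1 fell with isoproterenol in the average, where 18.8% of all genes tested passed. These were the p97 cofactors Nploc4 (log2 fold change 0.16, edgeR adjusted p 0.0190) and Ufd1 (-0.15, edgeR adjusted p 0.0282), which form a pair.

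Of 7 tested transcriptional regulators of proteasome genes, Stat3 rose and Foxo3 fell in WT hearts, where 8.76% of all genes tested passed. Stat3, a cytokine-responsive factor, averaged 98.4 ± 3.6 CPM in WT vehicle and 121 ± 6.74 CPM in WT isoproterenol (log2 fold change 0.30, edgeR adjusted p 6.23e-04). In KO it averaged 104 ± 4.46 and 117 ± 4.82 CPM (log2 fold change 0.17, edgeR adjusted p 0.0502). Foxo3, which drives degradation genes in muscle, averaged 106 ± 9.63 and 82.1 ± 7.94 CPM (log2 fold change -0.37, edgeR adjusted p 0.00698). In KO it averaged 93.4 ± 11.5 and 97.3 ± 10.4 CPM (log2 fold change 0.06, edgeR adjusted p 0.751), and the difference of the responses did not pass (edgeR adjusted p 0.518). Nfe2l1, the main activator of proteasome genes when the enzyme is impaired, averaged 246 ± 20.1 and 260 ± 16.7 CPM in WT and 223 ± 13.1 and 234 ± 20.6 CPM in KO, and did not pass in any comparison. None of the genes in these pathway lists passed in a comparison of KO with WT.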

How the data were processed

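Counts per gene were measured by RNA-seq in 20 heart libraries. The authors' deposited table held raw counts. Per the submitters' processing notes, the tools were HISAT2 2.1.0, featureCounts 1.6.3, R 3.6.0 and limma 3.40.6, with the build GRCm38. Libraries were stranded total RNA, per the labels' protocols. The annotation release, strand setting and handling of multimapping reads are not given in the sources used here. Totals were 14609808 to 43671055 counts a library, and 0 columns lacked a sample.

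Groups came from the labels. IDs were matched without versions to GENCODE vM21 (55154 of 55335), and promoters to RefSeq (GRCm38.p6). Tests used edgeR 4.0.16 in R 4.3.3 (filterByExpr, TMM, robust quasi-likelihood fit, 1 mean per group, 16 residual degrees of freedom), with Benjamini-Hochberg adjustment over 14878 genes and a threshold of 0.05. Standard errors and 95% intervals come from the same fit. The procedure was tested on simulated counts. Log2 CPM used a prior count of 2. All members could be named, and of the other lists the genes that passed and those named by role. Members and lists were chosen with earlier results of these data known. Alternatives used DESeq2 1.42.0, limma-voom 3.58.1, sva 3.50.0, other scalings and filters, and fewer libraries. Figures were drawn with matplotlib 3.10.9.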

Additional observations from a re-analysis of the deposited data

Results flagged for a closer look

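A library stood apart from the other 4 of its group, by the gap to its nearest neighbour over the range on the log2 scale (above 0.71), in 6 of 184 tests of the 46 proteasome genes in 4 groups. Chance alone flags about 1 in 20 groups. The lid gene Psmd11 had 30.1 CPM in WT vehicle replicate 2, where the others had 23.2 to 25.0. In KO isoproterenol replicate 3, the ATPase gene Psmc6 had 39.3 CPM (others 35.2 to 36.3) and the lid gene Psmd7 15.3 CPM (others 12.2 to 13.0). In KO isoproterenol replicate 2, the assembly factor genes Psmd10 and Psmg1 had 1.65 CPM (others 2.44 to 2.84) and 4.44 CPM (others 6.19 to 6.78). Psmg3 had 0.377 CPM in KO vehicle replicate 2, where the others had 0.658 to 0.708. None of these genes passed a test in the report.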

How the results depend on the processing

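With library size alone in place of TMM, the 3 members that rose or fell in WT became 0 higher and 1 lower, the 3 lower in KO became 0, and the 5 lower in the average became 1, with 1 higher (Psmd13). Over all 14878 genes tested, the lower calls went from 613 to 296 in WT, from 638 to 281 in KO and from 1349 to 683 in the average. Higher calls went from 691 to 561, from 706 to 684 and from 1452 to 1630 in the same order. The medians of all genes tested were then 0.04, 0.08 and 0.06 on the log2 scale, so the shift was not particular to the members. The cause was not tested. Under that setting Pomp still fell in WT and in the average. Pomp fell in the average in all 31 alternatives, with log2 fold changes of -0.31 to -0.24 and an edgeR, DESeq2 or limma adjusted p of at most 0.00110. Psme3 lost its calls under library size alone only (adjusted p 0.134 in WT and 0.0655 in the average), as did Psme1 (0.144). Psmd12 lost its average call under library size alone (0.219) and without a low-count filter (0.0820). Psme4 lost its average call under library size alone (0.106), without WT vehicle replicate 1 (0.0634), without KO vehicle replicate 3 (0.0614) and without WT isoproterenol replicate 2 (0.0571). The 1 higher member in WT, Psme2b, became 0 with DESeq2, no filter, the stricter filter (at least 50 counts in 5 libraries, which left the gene out), 2 surrogate variables, and with the 2 libraries that stand apart left out (WT vehicle replicate 2, KO isoproterenol replicate 5). With only the groups compared in the fit, 1 member was lower in KO; that setting was not run for averages and the difference of responses.

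Leaving out each library in turn gave 0 to 1 higher and 2 to 2 lower members in WT, 0 to 0 higher and 0 to 4 lower in KO, and 0 to 1 higher and 4 to 7 lower in the average. The 3 comparisons of KO with WT and the difference of responses gave 0 members in either direction under every alternative run. Psmb7 passed in the average with 2 surrogate variables (adjusted p 0.0388), Psmd13 without WT vehicle replicate 5 (0.0437) and Psme2b without KO vehicle replicate 2 (0.0403). No value changed direction with a call. The median over members in KO moved to -0.02 under library size alone, and that of the difference of responses to -0.02 with 2 surrogate variables, with which the medians of KO against WT were 0.00 under vehicle and -0.02 under isoproterenol. The span of core levels was 7.08-fold with the longest transcript, where 10 of 46 ranks moved by more than 5. Without both libraries, an alternative chosen for this measure after seeing the data, the mean r was 0.36 for the core and 0.29 for the cap. No paired analysis was possible because the replicate numbers are only names given in record order, and the labels link no libraries across groups.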
